A study of Mus musculus with 12 samples.

Results

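Histone mRNAs were followed in 4T1 cells between RNA sedimenting below polysomes and RNA on polysomes. Members were taken by gene symbol: names starting with Hist, a digit and h, or with H2af or H3f3, and the H1f names ending in 1 further character, without pseudogenes marked -ps. The rule found 85 of the 55376 genes listed. These were 69 genes with Hist names, mostly of the histone clusters and here called clustered, and 15 genes named as histone variants, here called variant. The last was H3f3aos, an RNA antisense to H3f3a that matched by name only. Hist1h2aj, Hist1h2al, H3f3c and H2afy3 are annotated as pseudogenes, stayed in these numbers and were not tested.

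4T1 is a mouse mammary gland cancer cell line. Cells stably transfected with the empty pBICEP-CMV-2 vector (mock) were compared with cells carrying Mettl7a1 cDNA in the same vector under its CMV promoter (METTL7A1). Both were selected with G418 and treated with 0.1 mg/ml cycloheximide for 5 min before lysis. RNA of gradient fractions 3 to 7 (sub-polysomal) and of fractions 8 to 11 (polysomal) was pooled separately, with 3 libraries in each of the 4 groups, named A to C for mock cells and D to F for METTL7A1 cells. Triplicates are described as biological, and whether each line was a mixture of transfectants or a single clone was not given in the sources used here. The effect of METTL7A1 and any other difference between the 2 lines cannot be told apart.

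Core histones wrap DNA into nucleosomes, and the linker histone H1 binds where DNA enters and leaves them. Clustered genes are transcribed in S phase, and their mRNAs typically end in a conserved stem-loop in place of a poly(A) tail. The stem-loop is bound by SLBP, which serves in 3′ end processing, in translation and in the decay of these mRNAs when replication stops. Variant histones replace the canonical ones outside S phase as well, and their mRNAs are spliced or single-exon polyadenylated transcripts.

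The stem-loop is shown because it describes the members by sequence, independently of any count. It was searched as GG and 4 more bases, a loop of TTTN, and the reverse complement of the first 6 bases, in the 150 bases after the stop codon of GENCODE M21 transcripts (GRCm38), on the transcript strand. It was found in 44 of the 69 clustered genes and, among variants, in H2afx, whose mRNA is known with and without a poly(A) tail. In 17 clustered genes, not coding or with an annotated 3′ UTR of 2 bases or fewer, the annotation left no sequence to search for the stem-loop. Of 20999 protein-coding genes with an annotated 3′ UTR, 51 held it (0.243%), and 45 of these 51 were members. The lines below are written 5′ to 3′ as DNA, with the stem-loop in capitals.
Hist1h1c: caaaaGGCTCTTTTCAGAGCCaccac
Hist3h2a: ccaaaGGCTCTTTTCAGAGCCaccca
Hist1h4i: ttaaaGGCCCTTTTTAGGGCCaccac
H2afx: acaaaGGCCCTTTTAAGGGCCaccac
Hist1h3b: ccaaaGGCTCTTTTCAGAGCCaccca
Hist1h1c, Hist3h2a and Hist1h3b, from an H1, an H2A and an H3 gene, share the same 16 bases. The annotated transcript of Hist1h1c runs 840 bases past the stem-loop and that of H2afx 822 bases, whereas that of Hist1h3b ends 51 bases after it. Hist1h2bc and Hist2h2be, which are described below with the tested genes, had no match by this search.

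Library totals lay between 1817520 and 6966156 counts, so that 3 counts, the limit that a count of 0 allows, correspond to 0.431 to 1.65 CPM (counts per 1e6 counts). Mitochondrial genes took 0.684 to 8.49% of the counts. Mettl7a1 had 4 to 24 counts in mock libraries and 989 to 2436 in METTL7A1 libraries. The epithelial markers Krt8, Krt18, Epcam and Cdh1 summed to 1809 to 4046 CPM, and 8 markers of leukocytes, endothelium and fibroblasts to 9.67 to 27.0 CPM. Of those 8, Cd68 and Pdgfra had counts in every library, 825 and 201 in all, and Cd68 was called higher in polysomes of METTL7A1 than of mock cells (edgeR), at mean levels of 19.3 and 6.54 CPM. Cd3e was at 0 in every library and Ptprc, Pecam1, Cdh5, Col1a1 and Dcn were at 0 in 6 to 11 libraries.

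Clustered mRNAs were nearly absent from these libraries. All 69 genes together held 3779 of 62664263 counts (0.00603%), and the variants held 123897 (0.198%). Hist1h1c alone had 2226 counts. The kit named for the libraries depletes ribosomal RNA and makes no selection for poly(A) tails. Rn7sk and Rpph1, nuclear RNAs without a tail that are usually abundant, had 307 and 280 counts over the 12 libraries. The gradients were loaded with cytoplasmic extracts, so that low counts of nuclear RNAs do not tell how the libraries were made. Whether a poly(A) or size step preceded the kit was not given in the sources used here, and the part of such a step in the low clustered counts was not tested. Of the clustered genes, 18 had no count in any library, which allows no statement on their absence at this depth. Of the variant genes, 9 had a count, and H1fx, H2afy2, H2afy3 and H2afb1 to H2afb3 were at 0. H3f3c had 8 counts in all and the antisense RNA H3f3aos 13, and neither was tested. Genes were tested if they reached 1 CPM in at least 3 libraries, which 7 clustered genes, 8 variants and 12224 genes in all did.

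The 7 tested clustered genes had long annotated 3′ ends. Their 3′ UTRs were 376 to 4931 bases long, whereas the median over the 60 untested clustered genes with a value was 89 bases. Of the 22 clustered genes with an annotated 3′ UTR over 300 bases, 7 were tested; of the other 47 none was, and those held 257 counts together. Of the 18 genes whose transcript runs over 300 bases past the stem-loop, 5 were tested, and of the 21 that end within 60 bases of it, none. Those 21 genes held 105 counts. A longer annotation also collects more counts, and how much of the difference that makes was not tested.

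**Figure D1:**
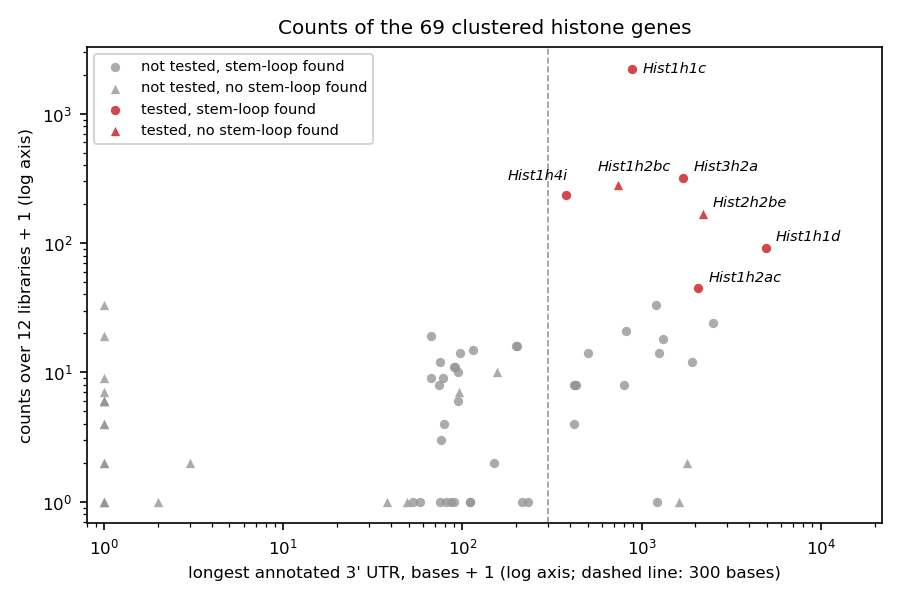
Counts summed over 12 libraries (vertical, plus 1, log axis) against the longest annotated 3′ UTR in bases (horizontal, plus 1, log axis) for the 69 clustered genes, with circles for genes with a stem-loop found, triangles for genes without, and red for the 7 tested genes. All 7 red points lie to the right of the dashed line at 300 bases, and Hist1h1c stands highest with 2226 counts.

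A polyadenylation signal (AATAAA or ATTAAA in the last 40 annotated bases) was present in 17 of the 69 clustered genes, 4 of them tested, against 79.24% of 21782 protein-coding genes. Sequence shared between copies also differed among the members. Of 50-base windows along the exons, under 50% were unique in 37 clustered genes, none of which was tested. At least 90% were unique in 8 genes, of which Hist1h1c, Hist1h1d and Hist2h2be were tested. Hist1h1b, an H1 gene with all windows unique and no annotated 3′ UTR, had 32 counts. The part of shared sequence in the low counts was not tested.

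Few genes of any family could be tested. H1 had 2 tested of 6 genes, H2A 2 of 20, H2B 2 of 18 and H4 1 of 13. None of the 12 clustered H3 genes was tested, and the highest of them had 14 counts. Of the clustered genes, 56 lie on chromosome 13, 10 on chromosome 3, 2 on chromosome 11 and 1 on chromosome 6.

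Library F of the polysomal METTL7A1 group stood apart for the untested clustered genes. It held 170 of their 418 counts (40.7%), against 2 to 59 in each of the other 11 libraries. In it 38 of the 62 genes had a count, led by Hist1h1b with 18 (14 in the other 11 libraries together), Hist1h1e with 16 (16), Hist2h2bb with 12 (6), Hist1h4d with 11 (9) and Hist1h3b with 10 (3). Hist1h1d, a tested gene, had 21 counts there and 7 in each of the other polysomal METTL7A1 libraries. Rn7sk, Rpph1, Rmrp, Rny1, Rny3 and Vaultrc5, which are RNAs without a poly(A) tail and were listed after the data had been seen, moved with it. They summed to 80 counts in this library and to 1 to 6 in the other 5 polysomal libraries. In sub-polysomal libraries they summed to 12.0 to 23.1 CPM in mock and 13.9 to 57.7 CPM in METTL7A1 cells. In polysomal libraries they summed to 0.137 to 0.745 CPM in mock and 0.257 to 13.5 CPM in METTL7A1 cells, the highest in library F. Of the 3 of them tested, 2 were called lower in polysomes in each line, and none was called between the lines. The mean sub-polysomal level of Rpph1 was 5.39 CPM in mock and 19.4 CPM in METTL7A1 cells, and that of Rn7sk 8.89 and 16.2 CPM. The part of such RNAs in the results was not tested, and a result whose side of a threshold changes without this library is given both ways. The exception is Hist1h2ac, which reached 1 CPM in this library and 2 others only and was not tested without it.

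**Figure D2:**
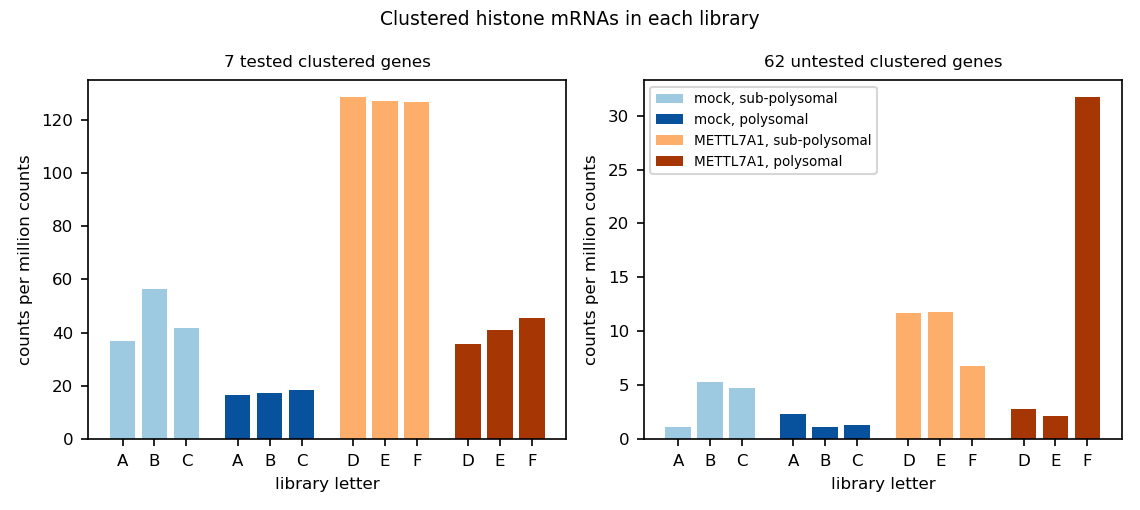
Counts in CPM, here without TMM scaling, of the 7 tested (left) and the 62 untested (right) clustered genes in each of the 12 libraries, with bars coloured by group and named by letter. The tested genes reach 127 to 129 CPM in the sub-polysomal METTL7A1 libraries and 16.4 to 18.5 in the polysomal mock libraries; the untested genes stand at 31.7 in polysomal METTL7A1 library F and at 1.10 to 11.8 elsewhere.

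Levels per kilobase of exon, as the mean CPM per kb over the 12 libraries, put the variants above nearly all clustered genes. H3f3b, which encodes the replacement H3 together with H3f3a, was the highest at 439, followed by H2afz at 306, H1f0 at 115, H2afx at 87.9, H2afy at 66.2 and H2afv at 36.6. Hist1h1c, an H1 subtype, was the highest clustered gene, at 27.2, beside H3f3a at 20.6. Below them came Hist1h4i (6.47), the variant H2afj (5.64), Hist1h2bc (4.61), Hist3h2a (2.85), Hist2h2be (1.31), Hist1h2ac (0.345) and Hist1h1d (0.209). The order of these means was not that of each group. H2afx was above H2afy only in sub-polysomal METTL7A1 libraries (204 ± 7.28 against 41.3 ± 0.948, SD, n = 3) and below it in the other 3 groups, as in polysomal mock libraries (27.6 ± 7.49 against 86.5 ± 6.48). Hist1h1c was likewise above H3f3a by mean in METTL7A1 cells (66.0 against 20.8 in sub-polysomes) and below it in mock cells (21.1 against 27.7). Neighbours in this order were not tested against each other. The counts of H2afz and H3f3a are uncertain, since 30.4% and 69.7% of their windows are unique. H3f3a is also overlapped on the opposite strand over 26.6% of its exon bases, and Hist3h2a by Trim17 on the same strand over 33.0%.

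**Figure D3:**
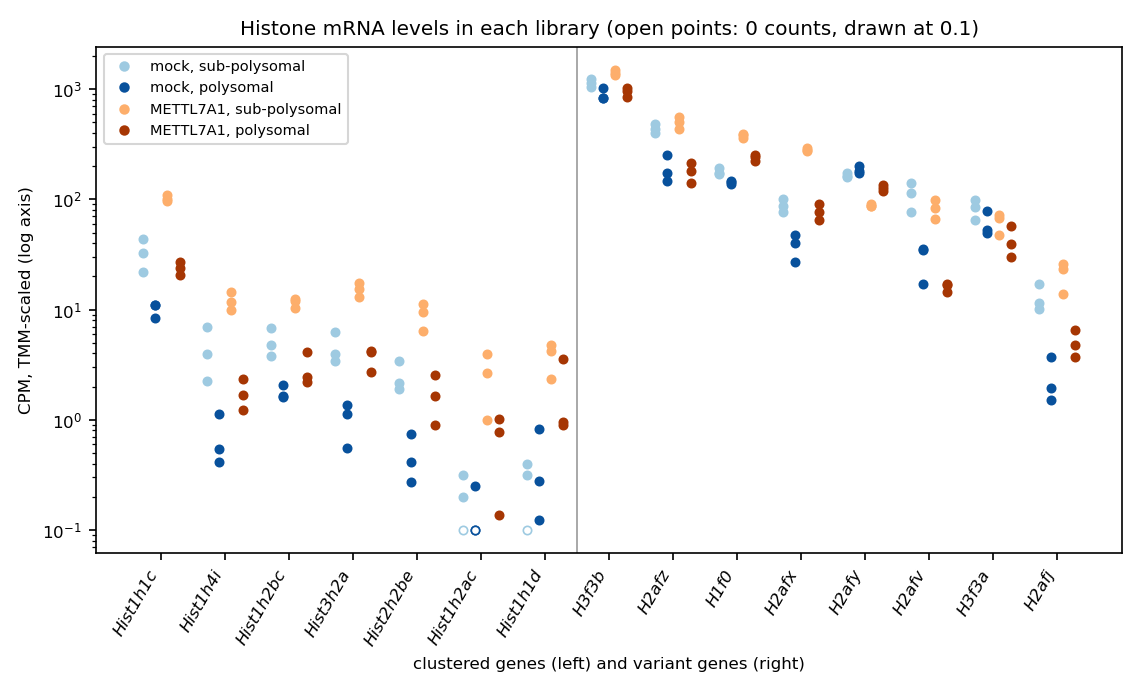
Level of each of the 15 tested histone genes (CPM scaled by TMM factors, log axis) in each of the 12 libraries, with 3 points for each group and open points for libraries at 0. In Hist1h1c, Hist1h4i, Hist1h2bc, Hist3h2a and Hist2h2be the orange sub-polysomal METTL7A1 points lie above all other points, and the polysomal points of either line lie below its sub-polysomal points.

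The comparison of the pools asked how histone mRNAs were divided between the pools within each line. In mock cells, 4 of the 7 tested clustered genes were called lower in the polysomal pool (edgeR, adjusted p below 0.01 and a log2 change beyond 1.5), namely Hist1h1c, Hist1h4i, Hist2h2be and Hist3h2a. Hist2h2be reached 1 CPM in no polysomal mock library and Hist1h4i in 1. Of the 8 tested variants, H2afj and H2afv were called lower. Of all genes tested, 6.86% were called lower in mock cells and 0.687% higher. In METTL7A1 cells 5 clustered genes (with Hist1h2bc) and 3 variants (with H2afx) were called lower, against 10.3% of all genes (1.76% were called higher). Among tested genes with under 600 coding bases, which 12 of the 15 tested members have, 21.3% were called lower in mock and 33.9% in METTL7A1 cells. No tested member was called higher in polysomes in either line. At an edgeR adjusted p under 0.05 with no limit on size, 5 clustered genes and 5 variants were lower in mock cells, against 23.7% of all genes (23.3% were higher). In METTL7A1 cells 6 clustered genes and 7 variants were lower, against 29.3%, and H2afy was higher, against 30.0%.

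Hist1h1c (chr13:23738808-23740367 on GRCm38, plus strand) carried most of the clustered counts. In mock cells its level was 22.0, 43.7 and 32.8 CPM in the sub-polysomal and 8.33, 11.0 and 11.0 CPM in the polysomal libraries. In METTL7A1 cells it was 102, 109 and 97.6 CPM in the sub-polysomal and 20.7, 23.9 and 26.8 CPM in the polysomal libraries. The pools did not overlap in either line. The polysomal level was 3.31-fold lower in mock cells (log2 change -1.73 ± 0.20, SE, edgeR adjusted p = 3.3e-06) and 4.33-fold lower in METTL7A1 cells (-2.12 ± 0.18, adjusted p = 5.9e-08). With offsets for the exonic length of each gene (length offsets) the mock value was -1.37, short of the limit for a call.

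Hist1h4i (chr13:22040636-22041362, minus strand), an H4 gene, showed the most negative fitted change among the clustered genes in either line. It had 2.26, 6.92 and 3.95 CPM in sub-polysomal and 0.546, 0.412 and 1.12 CPM in polysomal mock libraries. In METTL7A1 cells it had 9.95, 11.7 and 14.3 CPM and 1.23, 1.67 and 2.36 CPM. Every sub-polysomal library was above every polysomal one of its line, on 3 to 60 counts per library. The log2 changes were -2.66 ± 0.45 and -2.79 ± 0.33 (SE, edgeR adjusted p = 0.00011 and 1.5e-06). With offsets for exonic length they were -1.74 and -1.61, above those of Hist2h2be. The mock value was -1.998 without mock letter B and -3.36 without C.

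Hist3h2a (chr11:58954685-58956830, plus strand), an H2A gene outside the main cluster, was 4.47-fold lower in polysomes of mock cells and 4.06-fold lower in those of METTL7A1 cells (edgeR adjusted p = 0.00016 and 2.6e-06). The H2B gene Hist2h2be (chr3:96221119-96223738, plus strand) changed by -2.21 ± 0.55 and -2.44 ± 0.36 on the log2 scale. Its call in mock cells rested on few counts and was lost without mock library A (log2 -1.82, edgeR adjusted p = 0.032) or B (-2.25, adjusted p = 0.015). Hist1h2bc (chr13:23684199-23692908, plus strand), another H2B gene, changed by -1.41 ± 0.34 in mock and by -1.95 ± 0.27 in METTL7A1 cells. With length offsets the latter was -1.13 and no longer called.

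The last 2 tested clustered genes gave no call in the pools. Hist1h2ac (chr13:23681467-23683948, minus strand) had 0 to 2 counts in each mock library, and its change of -1.94 ± 0.64 in METTL7A1 cells had an edgeR adjusted p of 0.014. It was not tested without polysomal METTL7A1 library F. Hist1h1d (chr13:23553262-23560686, plus strand) changed by 0.40 ± 1.12 in mock cells, where limma-voom gave -0.13, and by -1.16 ± 0.51 in METTL7A1 cells. Without polysomal METTL7A1 library F the latter was -2.03 (edgeR adjusted p = 0.0039), which would be a call. Without that library the called members in METTL7A1 cells numbered 10, beside 1507 of 12195 genes.

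Among the variants, H2afv (chr11:6427229-6444443, minus strand) and H2afz (chr3:137864487-137866922, plus strand) encode the closely similar H2A.Z proteins, found at promoters. H2afv fell from 77.3, 141 and 114 CPM in sub-polysomal to 17.2, 35.3 and 34.6 CPM in polysomal mock libraries, and from 66.3, 82.9 and 99.7 CPM to 14.4, 17.2 and 16.8 CPM in METTL7A1 libraries. The pools of either line were apart. Its log2 changes were -1.94 ± 0.24 and -2.37 ± 0.25 (SE, edgeR adjusted p = 5.3e-06 and 4.1e-07). H2afz changed by -1.19 ± 0.19 and -1.49 ± 0.19, under the limit of 1.5 in size. In METTL7A1 cells it lay at that limit, since 10 of 17 other settings called it, among them DESeq2 (-1.54) and the fit without polysomal library F (-1.64), whereas length offsets gave -0.59.

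H2afj (chr6:136808244-136810074, plus strand), an H2A variant known to accumulate in senescent cells, was 5.35-fold lower in polysomes of mock cells and 4.16-fold lower in those of METTL7A1 cells. Its log2 change in mock cells was -2.42 ± 0.34 with all libraries and -3.04 without mock letter C. H2afx (chr9:44334694-44336077, plus strand), the variant phosphorylated at DNA breaks, changed by -1.21 ± 0.18 in mock and by -1.87 ± 0.18 in METTL7A1 cells (edgeR adjusted p = 3.8e-05 and 1.4e-07). The METTL7A1 value was -0.98 with offsets for GC content and -1.28 with offsets for exonic length. With either correction it was no longer called.

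The remaining variants lay closer to the middle of all genes. H1f0 (chr15:79028450-79030504, plus strand), the linker histone of resting and differentiated cells, changed by -0.32 ± 0.13 and -0.67 ± 0.13. H3f3b (chr11:116021912-116027962, minus strand) changed by -0.34 ± 0.16 and -0.58 ± 0.16, and H3f3a (chr1:180800832-180813943, minus strand) by -0.46 ± 0.23 and -0.59 ± 0.23. H2afy (chr13:56073619-56135631, minus strand), which encodes the large variant macroH2A, was the only tested member above 0 in both lines. Its level was 173, 160 and 162 CPM in sub-polysomal and 200, 182 and 172 CPM in polysomal mock libraries. In METTL7A1 cells it was 90.5, 87.8 and 86.6 CPM against 128, 136 and 120 CPM. The pools overlapped in mock cells (0.17 ± 0.12, edgeR adjusted p = 0.28) and were apart in METTL7A1 cells (0.53 ± 0.12, adjusted p = 0.0012).

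Of the 15 tested members, 12 have under 600 coding bases, and the changes were set beside those of other genes by coding length. The 1432 tested genes with under 600 coding bases had a median log2 change between pools of -0.87 in mock and -1.10 in METTL7A1 cells, and all tested genes of 0.05 and 0.06. The median over the 8 tested variants was -0.83 and -1.08, close to that of short genes. The median over the 7 tested clustered genes was -1.73 and -2.02, but these are only the genes that passed the filter, and no test of this difference was made. Hist1h1c, Hist1h1d and H2afy have 636, 663 and 1116 coding bases. The tested genes with 600 to 1200 coding bases had a median of -0.06 in mock and -0.10 in METTL7A1 cells.

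**Figure D4:**
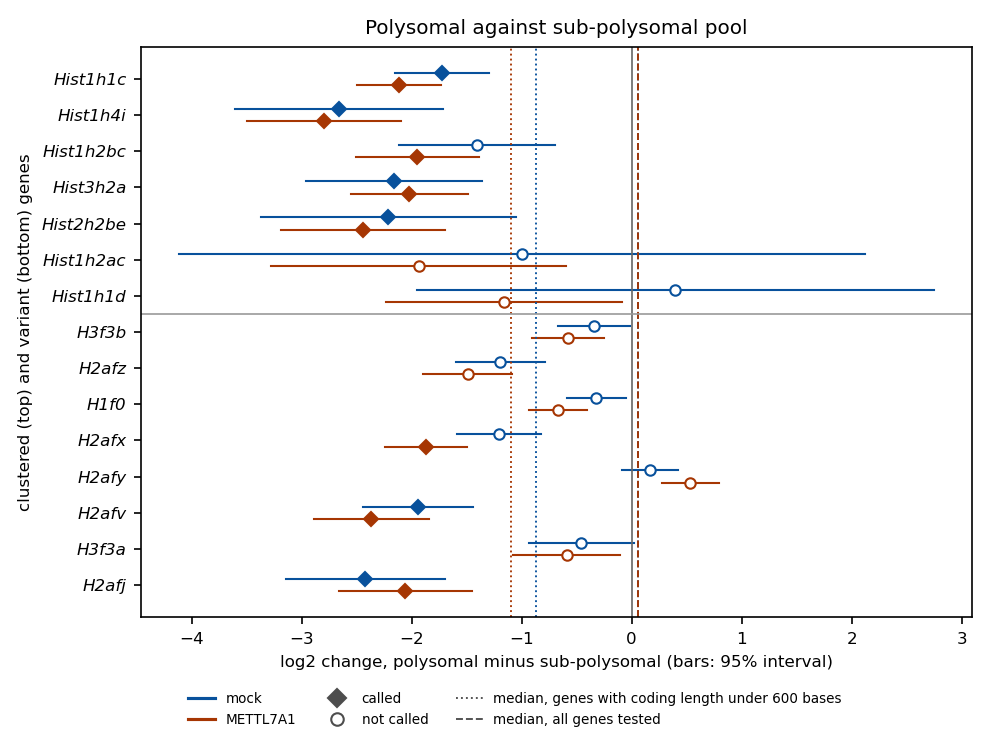
Log2 change between pools, polysomal minus sub-polysomal, for the 15 tested members in mock (blue) and METTL7A1 cells (brown), with bars for 95% intervals, diamonds for calls, dashed lines for the median of all genes and dotted lines for the median of genes with under 600 coding bases. Of the clustered genes, Hist1h4i lies farthest left at -2.66 and -2.79, and H2afy is the only gene to the right of 0 in both lines.

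The second comparison asked how METTL7A1 cells differed from mock cells within each pool. In the sub-polysomal pool 5 of the 7 tested clustered genes were called higher in METTL7A1 cells (Hist1h1c, Hist1h1d, Hist1h2ac, Hist2h2be and Hist3h2a), and of the variants H2afx alone, against 1.5% of all genes. In the polysomal pool Hist3h2a was the only member called higher, against 0.982% of all genes. No member was called lower in either pool, where 1.26% and 1.15% of all genes were. Hist1h1c and Hist1h2bc reached 1 CPM in every library, whereas Hist1h2ac reached it only in 3 METTL7A1 libraries and Hist1h1d in 6 METTL7A1 libraries and 1 mock library. Both thus had to be high in METTL7A1 cells to be tested, and their calls are a description. Of the 5 clustered genes that would pass on mock libraries alone, 3 were called higher in sub-polysomes and 1 in polysomes. More mRNA per cell, more cells in S phase and other differences between the lines cannot be told apart in pooled gradient fractions of whole cultures.

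The 6 values of Hist1h1c in METTL7A1 cells given above were each higher than all mock values of the same pool. Its level was 3.06-fold higher in the sub-polysomal pool (log2 1.61 ± 0.19, SE, edgeR adjusted p = 6.8e-06) and 2.34-fold higher in the polysomal pool (1.23 ± 0.20, adjusted p = 0.00025). The sub-polysomal call rested on a narrow margin, since the value was 1.42 without mock library A, 1.47 with length offsets and 1.36 with GC offsets. Polysomal METTL7A1 and sub-polysomal mock libraries, at 20.7 to 26.8 and 22.0 to 43.7 CPM, overlapped.

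Hist3h2a had 3.39, 6.29 and 3.95 CPM in sub-polysomal mock and 15.3, 12.9 and 17.5 CPM in sub-polysomal METTL7A1 libraries. In polysomes it had 1.37, 0.550 and 1.12 CPM against 4.25, 4.11 and 2.69 CPM. The lines did not overlap in either pool. The changes were 1.72 ± 0.28 and 1.85 ± 0.35 on the log2 scale (SE, edgeR adjusted p = 0.00021 and 0.0010). Leaving out METTL7A1 letter D or E took the polysomal adjusted p to 0.011 and 0.012, past the limit of 0.01.

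Hist2h2be, which reached 1 CPM in no polysomal mock library, was 3.84-fold higher in the sub-polysomal pool (log2 1.94 ± 0.39, edgeR adjusted p = 0.0011), a call lost without METTL7A1 letter D (1.77, adjusted p = 0.012). In polysomes it changed by 1.71 ± 0.51 (adjusted p = 0.026) and, without METTL7A1 polysomal library F, by 1.34 (adjusted p = 0.13). Hist1h4i changed by 1.40 ± 0.33 in sub-polysomes and by 1.26 ± 0.48 in polysomes, and Hist1h2bc by 1.28 ± 0.29 and 0.74 ± 0.32. Their sub-polysomal adjusted p-values were 0.0035 and 0.0023 by edgeR, under the limit for log2 size. Their polysomal ones were 0.072 and 0.11.

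Hist1h1d had 0, 1 and 2 counts in sub-polysomal mock libraries and 7, 17 and 20 in METTL7A1 ones. Its counts in polysomes were 6, 2 and 1 in mock and 7, 7 and 21 in METTL7A1 libraries, the highest in library F. The polysomal log2 change of 2.04 ± 0.66 was 1.17 without that library (edgeR adjusted p = 0.28). Hist1h2ac had 0, 1 and 1 counts in sub-polysomal mock libraries, under the limit that a count of 0 allows, and 12, 4 and 11 in METTL7A1 ones. Its sub-polysomal call was absent with DESeq2 (adjusted p = 0.014), with limma-voom (adjusted p = 0.019) and in edgeR fits without mock letter A, B or C or METTL7A1 letter E (adjusted p of 0.010 to 0.037). Without METTL7A1 letter D or F it no longer reached 1 CPM in 3 libraries and was not tested, so that no fit without a letter called it. The sub-polysomal call of Hist1h1d was lost without mock letter B or METTL7A1 letter E (edgeR adjusted p = 0.012 in each fit).

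The 62 untested clustered genes, summed as a description, stood at 1.10 to 5.27 CPM, without TMM scaling, in sub-polysomal mock and at 6.77 to 11.8 in sub-polysomal METTL7A1 libraries, without overlap. In polysomes they stood at 1.16 to 2.35 in mock libraries and at 2.80, 2.18 and 31.7 in METTL7A1 libraries D, E and F. Libraries D and E thus lay at or near the mock range. Relative to 100 variant counts, clustered counts numbered 1.81 to 3.27 in sub-polysomal mock and 5.73 to 6.35 in sub-polysomal METTL7A1 libraries. The polysomal mock libraries gave 0.865 to 1.17, and the polysomal METTL7A1 libraries D, E and F gave 2.32, 2.30 and 3.89.

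The variants did not move as a group between the lines. H2afx had 77.3, 99.8 and 86.7 CPM in sub-polysomal mock libraries against 279, 295 and 276 CPM in METTL7A1 libraries, and 26.9, 40.4 and 47.3 CPM against 64.7, 76.8 and 91.0 CPM in polysomes. The lines were apart in both pools. It was 3.21-fold and 2.02-fold higher in METTL7A1 cells (log2 1.68 ± 0.18 and 1.02 ± 0.18, SE, edgeR adjusted p = 3.4e-06 and 0.00059). With GC offsets the sub-polysomal value was 1.04, so that the call did not hold.

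H1f0 was 169 to 191 CPM in sub-polysomal mock and 362 to 396 CPM in METTL7A1 libraries, and 137 to 146 against 225 to 255 CPM in polysomes. The groups did not overlap. Its changes of 1.10 ± 0.13 and 0.76 ± 0.13 had edgeR adjusted p-values of 8.3e-06 and 0.00039 but were under the limit for log2 size. H2afj changed by 0.68 ± 0.29 and 1.05 ± 0.35 (edgeR adjusted p = 0.075 and 0.046), and the latter was 1.09 without polysomal METTL7A1 library F (adjusted p = 0.078).

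H2afy moved the other way, by -0.90 ± 0.13 in sub-polysomes and -0.53 ± 0.12 in polysomes (SE, edgeR adjusted p = 5.0e-05 and 0.0048). Its METTL7A1 libraries were below all mock libraries of the same pool. H2afv changed by -0.42 ± 0.23 and -0.85 ± 0.25, with edgeR adjusted p-values of 0.17 and 0.024, the latter 0.054 without library F. H2afz changed by 0.20 ± 0.19 and -0.10 ± 0.19, H3f3b by 0.31 ± 0.16 and 0.07 ± 0.16, and H3f3a by -0.39 ± 0.23 and -0.52 ± 0.23, all with adjusted p-values above 0.1. Without library F the polysomal value of H3f3a was -0.80 (edgeR adjusted p = 0.031). The median over tested variants was 0.25 in sub-polysomes and -0.01 in polysomes, beside -0.0015 and -0.01 over all genes. Over tested genes with under 600 coding bases it was 0.21 and -0.05.

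**Figure D5:**
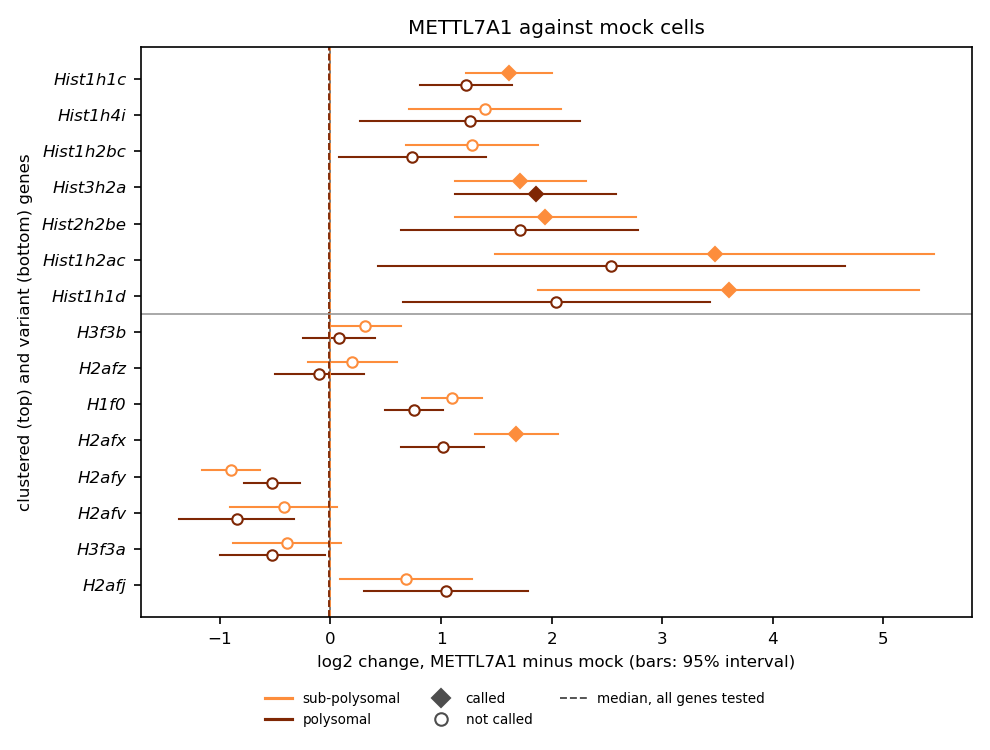
Log2 change from mock to METTL7A1 cells for the 15 tested members in the sub-polysomal (orange) and polysomal (brown) pools, with bars for 95% intervals, diamonds for calls and dashed lines for the median of all genes. The clustered genes lie between 0.74 and 3.60. Hist1h1d and Hist1h2ac, which had to be high in METTL7A1 cells to be tested, lie highest, and the other 5 end at 1.94 (Hist2h2be). The variants lie from -0.90 (H2afy) to 1.68 (H2afx) on either side of 0.

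The third comparison asked whether the change between pools differed between the lines, as the interaction of line and pool. No member was called, nor was any of the 12224 genes (0% called in either direction). At an unadjusted p under 0.05 edgeR gave 1911 genes, of which 2 were members. At an adjusted p under 0.05 DESeq2 gave 329 genes and limma-voom 0, with 0 members by either. The members past the unadjusted level were H2afx, at -0.66 on the log2 scale (95% interval -1.19 to -0.14), and H2afy, at 0.37 (0.0024 to 0.73). Their edgeR adjusted p-values were 0.21 and 0.32. Hist1h1c gave -0.39 (-0.96 to 0.18), Hist1h4i -0.13 (-1.66 to 1.39) and Hist1h2ac -0.94 (-5.51 to 3.64). Hist1h1d gave the largest value of a member, -1.56 (-4.15 to 1.03), and Hist2h2be gave -0.23 (-1.96 to 1.49). The intervals of Hist1h4i, Hist1h2ac and Hist2h2be allow changes in either direction beyond the limit for a call or close to it. That of Hist1h1d allows a negative change beyond that limit.

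Genes of 3 pathways around histone mRNAs were counted in the same fits. Of 29 genes of histone mRNA processing and decay, 25 were in the file and tested. Among them Lsm1, a subunit of the ring that binds mRNA ends in decay, was called lower in polysomes of both lines (log2 -1.53 ± 0.19 and -1.69 ± 0.19) and Lsm10, of the U7 snRNP, in METTL7A1 cells (-1.59 ± 0.21). Between the lines none of the 25 was called. In sub-polysomes 5 were higher and 8 lower at an edgeR adjusted p under 0.05, against 16.8% and 14.5% of all genes. In polysomes 0 were higher and 1 lower, against 9.69% and 8.28%. Slbp itself changed by -0.69 ± 0.13 in sub-polysomes (adjusted p = 0.00080) and by -0.14 ± 0.13 in polysomes (adjusted p = 0.50).

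Of 38 genes of DNA replication and S phase, all tested, none was called between the lines. At an edgeR adjusted p under 0.05, 3 were higher and 13 lower in sub-polysomes of METTL7A1 cells, against 16.8% and 14.5% of all genes. In polysomes 1 was higher and 9 lower, against 9.69% and 8.28%. Their median log2 changes were -0.24 and -0.19. Rfc3, a clamp loader subunit, fell by 0.82 ± 0.14 on the log2 scale in sub-polysomes, whereas Ccne1, the cyclin of S phase entry, rose by 0.73 ± 0.15 (edgeR adjusted p = 0.00036 and 0.0012). Between the pools E2f1 was called lower in polysomes of both lines (-1.81 ± 0.18 and -2.11 ± 0.18), and the DNA ligase gene Lig1 was called higher in METTL7A1 cells (1.52 ± 0.17).

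Of 24 genes of histone chaperones and deposition, 23 were tested and none was called between the lines. At an edgeR adjusted p under 0.05, 1 was higher and 6 lower in sub-polysomes, against 16.8% and 14.5% of all genes. In polysomes 0 were higher and 1 lower, against 9.69% and 8.28%. Between the pools Ubn1, of the complex that deposits the replacement H3, was called higher in polysomes of mock cells (1.67 ± 0.20). In METTL7A1 cells Anp32e, which removes H2A.Z, was called higher (1.62 ± 0.20) and Znhit1, of the complex that deposits it, lower (-2.13 ± 0.20).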

How the data were processed

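RNA-Seq libraries of both pools from mock and METTL7A1 4T1 cells were analysed (12 in all). The deposited values are whole-number read counts per gene, which the authors made from ribosomal RNA-depleted, stranded libraries with bcl2fastq 2.20.0.422, BBDuk, STAR 2.5.3a on mm10 and featureCounts on the Ensembl annotation of GRCm38. The strand setting and the handling of reads matching several genes were not given in the sources used here; copies of clustered genes are therefore uncertain.

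Groups followed the labels. Genes with at least 1 CPM in 3 or more libraries were kept, and their counts were scaled by TMM and fitted with edgeR 4.0.16 (R 4.3.3) in all 12 libraries with 1 mean per group. The quasi-likelihood test was adjusted by the Benjamini-Hochberg method over 12224 genes. A call needed an adjusted p below 0.01 and a log2 change beyond 1.5, as in the authors' analysis of total RNA. Fitted changes used the default prior count of edgeR. A prior count of 2 entered only the log2 levels behind the offsets and the correlation of same-letter libraries. Intervals cover 95%. P-values measure the spread between these libraries.

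Named were the 2 highest clustered genes of each family, the tested variants and the called members, which together made up all 15 tested members, and at most 3 genes of each pathway list in a comparison, by smallest p. Genes named from library F, from the untested members, called list genes beyond these 3, Cd68, Pdgfra and Slbp were chosen after their values were seen. The members and lists were chosen with earlier results of these data known. Sequences, 3′ UTRs and window uniqueness came from GENCODE M21; 82 of 85 members had the coordinates of the file. DESeq2 1.42.0, limma-voom 3.58.1, other scalings, filters, offsets and left-out libraries were tried. The scripts were tested on simulated data.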

Additional observations from a re-analysis of the deposited data

How the results depend on the processing

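With at least 10 counts required in every library, which 10 members passed, the called members numbered 3 in mock and 6 in METTL7A1 pools (6 and 8 as reported), and 0 between the lines in polysomes and 2 in sub-polysomes (1 and 6 as reported). Of the 8855 genes that passed this filter, 509, 861, 55 and 92 were called in that order. At an adjusted p under 0.05 with no limit on size the members numbered 10, 14, 9 and 10 in that order. Of all genes, 23.3, 30.0, 9.69 and 16.8% were then higher and 23.7, 29.3, 8.28 and 14.5% lower. Without a filter on low counts 5 members were called in polysomes between the lines, beside 330 of 22519 genes. The 5 included Hist1h1b (32 counts) and Hist1h2bb (18 counts), which have most or many of their counts in polysomal METTL7A1 library F. Leaving out each letter in turn gave 5 to 7 called members in mock pools, 8 to 9 in METTL7A1 pools, 0 to 1 between the lines in polysomes and 4 to 5 in sub-polysomes (6 as reported). Over all genes tested these fits called 691 to 1109, 1216 to 1533, 189 to 251 and 233 to 361 in that order. Leaving out only polysomal METTL7A1 library F, an alternative chosen after seeing the data, gave 10 members in METTL7A1 pools and 1 between the lines in polysomes. Of 12195 genes this fit called 1507 and 215. Without mitochondrial counts the mean share of clustered genes in sub-polysomal METTL7A1 libraries was 0.0146% in place of 0.0138%.

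Among the single-gene values followed, directions turned only for those within their error. For the interaction of line and pool only Hist1h1c, H1f0, H2afx and H2afy were followed. Its median over the tested clustered genes was -0.39 as reported and 0.31 without mock letter C. Hist1h1d between mock pools was -0.13 by limma-voom, -0.088 with length offsets and -0.86 to 1.34 on leaving out a letter. H2afz between the lines was -0.019 in sub-polysomes with length offsets, and -0.25 to 0.15 in polysomes on leaving out a letter. Over these single-gene values and the other settings, 558 kept direction and side of the threshold, 16 passed it, 9 lost it and 3 reversed. On leaving out a letter, or polysomal METTL7A1 library F alone, 385, 8, 12 and 3 did. The cause was not tested. Scaling by Actb moved the median of all genes to -0.18 between METTL7A1 pools and to 0.26 between the lines in sub-polysomes, where 8 members were then called and 359 of 447 called genes were higher, against 183 of 337.

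Both pools of a line carry the same letters, which the labels do not explain and which may mark pools of the same gradient. Deviations of such libraries from their group means correlated at -0.29 to 0.11, and the letters were not used as pairs in the reported fit. With the letter as a replicate block 6 members were called in mock and 9 in METTL7A1 pools, and 0 for the difference between them. Of all 12224 genes 816, 1383 and 0 were called. H2afz in METTL7A1 pools was the only added call of a member. Of the 69 clustered genes, 62 were too low to test.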
